A study of Mus musculus with 6 samples.

Results

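The Cyp2c genes code for cytochrome P450 enzymes of the endoplasmic reticulum and form a cluster on mouse chromosome 19. They were followed here as a family of 10 genes named by symbol, Cyp2c29, Cyp2c37, Cyp2c38, Cyp2c39, Cyp2c40, Cyp2c44, Cyp2c50, Cyp2c54, Cyp2c69 and Cyp2c70. Of these, 9 had a row among the 24927 rows of the expression tables. No row carried the symbol Cyp2c44, which RefSeq lists as another name of Cyp2c23, and the row of Cyp2c23 is described with the other Cyp2c genes. Gene expression had been measured by RNA sequencing of whole liver in 6 C57BL/6 mouse libraries, 3 labelled Cdkl3-/- (knockout) and 3 labelled wild type. All 6 carried the labels male, chow diet and 10 months of age. Cdkl3 codes for a kinase related to the cyclin-dependent kinases, and the study's design text places its knockout in the liver. The sources used here do not give the allele or any Cre driver. The labels do not say that the libraries came from separate mice, so a p-value here reflects only how these libraries vary, which may be technical.

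Cdkl3 itself had 0.0761, 0.146 and 0.195 FPKM in the 3 libraries labelled knockout, against 0.166, 0.0883 and 0.119 FPKM in the 3 labelled wild type. FPKM counts the fragments of a transcript per kilobase of its length, scaled to the fragments mapped in that library. These values rest on 10 to 31 reads under the knockout label and 13 to 32 reads under the wild type label, and the groups overlapped (log2 difference 0.02 ± 0.06 SE, limma adjusted p = 0.84 in a fit without a filter on low values). The level of the targeted gene did not separate the labelled groups, and whether the counted part of Cdkl3 lies in the deleted part was not tested. Genes of the sex chromosomes separated the groups although every library was labelled male. Xist, the RNA that silences one X chromosome in female cells, was at 0.0125 to 0.0273 FPKM in the libraries labelled knockout and at 192 to 292 FPKM in those labelled wild type. The Y-linked gene Ddx3y was at 38.2 to 50.8 FPKM in the libraries labelled knockout and at 0.0694 to 0.207 FPKM in those labelled wild type. Sex as shown by these genes and the labelled genotype cannot be told apart in any comparison given here. Depth worked out from the FPKM steps was about 24530000 to 39550000 reads in the libraries labelled knockout and about 20460000 to 48610000 in those labelled wild type. Mitochondrial transcripts took 63.17% to 70.11% of all FPKM under the knockout label and 70.47% to 73.88% under the wild type label.

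Cyp2c enzymes take electrons from P450 reductase and insert oxygen into fatty acids, steroids, retinoids and drugs. Several turn arachidonic acid into epoxyeicosatrienoic acids, which soluble epoxide hydrolase breaks down, and others make hydroxyeicosatetraenoic acids. In rodent liver, nuclear receptors such as HNF4A, CAR and PXR act on Cyp2c genes, and many members are known to differ between males and females under the control of growth hormone.

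The promoters are shown first because neighbouring genes with similar upstream sequence differed in direction between the groups. The sequences are those of RefSeq (GRCm38.p6, 250 bases before to 50 bases after the annotated start, 5′ to 3′ on the strand of the gene). A window was given for 8 of the 9 members with a row and none for Cyp2c54. Cyp2c39 had a second window 163 kb away from its gene, which was not counted. Short motifs were searched on both strands. In the windows below, CAAAGTC, the core of a binding sequence of HNF4A, is in capitals with 10 bases on each side, and the coordinates follow in the next sentences.
Cyp2c29: atcaaagagaCAAAGTCtattagagag
Cyp2c39: atcaaagggaCAAAGTCtacttgaaag
Cyp2c70: aggtcaaactCAAAGTCcaaactctgt
Cyp2c37: agtattgtagCAAAGTCtagttgaatg
Cyp2c40: atcattgagaCAAAGTCcatttggaag
Cyp2c69: atcattgagaCAAAGTCcatttggaag
Cyp2c67: atcattgagaCAAAGTCcatttggaag
Cyp2c68: atcattgaaaCAAAGTCcaattggaag
On the plus strand these stretches lie at Cyp2c29 (chr19:39286966-39286992), Cyp2c39 (chr19:39510726-39510752) and Cyp2c37 (chr19:39992298-39992324). On the minus strand these stretches lie at Cyp2c70 (chr19:40187334-40187360), Cyp2c40 (chr19:39812843-39812869), Cyp2c69 (chr19:39886828-39886854), Cyp2c67 (chr19:39649151-39649177) and Cyp2c68 (chr19:39741162-39741188).
The letters CAAAGTC were found in 6 of the 8 members with a window and in 4.44% of all 32851 promoter windows of that length. The 6 were Cyp2c29, Cyp2c37, Cyp2c39, Cyp2c40, Cyp2c69 and Cyp2c70, so members of both directions held them. TATAAA, the letters of a TATA box, was also found in 6 of 8 members, against 13.6% of all windows. It lay before the annotated start in 3 of them (Cyp2c29, Cyp2c38 and Cyp2c70) and across or after it in the other 3 (Cyp2c39, Cyp2c40 and Cyp2c69). AGGTCA, a core element bound by many nuclear receptors, was found in 2 of 8, against 16.3%. TTCNNNGAA, the STAT site, was found in 0 of 8, against 8.3%, which says only that these letters are not in these windows. The windows of several members resemble each other (98.9% of 270 aligned bases for Cyp2c40 and Cyp2c69). The 8 windows are therefore not separate draws to set against all windows. No matches of different motifs overlapped in the windows of the members. In Cyp2c40 and Cyp2c69 the printed stretch of 27 bases was the same, and it was also the same in Cyp2c67.

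Whole windows are printed for 2 pairs of genes whose members differed in direction, with CAAAGTC and TATAAA in capitals. Cyp2c29 was higher and Cyp2c39 lower in the libraries labelled knockout.
The window of Cyp2c29 lies at chr19:39286835-39287134 on the plus strand.
Cyp2c29: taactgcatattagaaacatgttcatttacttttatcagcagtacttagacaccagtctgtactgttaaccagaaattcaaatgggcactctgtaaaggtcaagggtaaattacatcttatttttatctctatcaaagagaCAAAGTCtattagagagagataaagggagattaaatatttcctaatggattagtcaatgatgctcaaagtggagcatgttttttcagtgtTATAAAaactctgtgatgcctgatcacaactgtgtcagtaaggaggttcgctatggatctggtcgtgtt
The window of Cyp2c39 lies at chr19:39510572-39510871 on the plus strand.
Cyp2c39: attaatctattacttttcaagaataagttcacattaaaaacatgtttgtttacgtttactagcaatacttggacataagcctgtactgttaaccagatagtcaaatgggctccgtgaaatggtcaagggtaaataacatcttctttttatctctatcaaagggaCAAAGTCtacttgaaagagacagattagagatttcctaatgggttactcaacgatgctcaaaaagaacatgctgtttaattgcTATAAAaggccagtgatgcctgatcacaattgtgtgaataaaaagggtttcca
Their windows matched at 81.9% of 265 aligned bases. Cyp2c67 was higher and Cyp2c69 lower in the libraries labelled knockout.
The window of Cyp2c67 lies at chr19:39648993-39649292 on the minus strand.
Cyp2c67: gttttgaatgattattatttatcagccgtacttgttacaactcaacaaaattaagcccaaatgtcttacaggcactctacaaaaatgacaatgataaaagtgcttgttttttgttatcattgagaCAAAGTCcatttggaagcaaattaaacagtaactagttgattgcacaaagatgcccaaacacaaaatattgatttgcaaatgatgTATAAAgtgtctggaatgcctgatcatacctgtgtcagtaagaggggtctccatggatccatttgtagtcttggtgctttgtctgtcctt
The window of Cyp2c69 lies at chr19:39886720-39887019 on the minus strand.
Cyp2c69: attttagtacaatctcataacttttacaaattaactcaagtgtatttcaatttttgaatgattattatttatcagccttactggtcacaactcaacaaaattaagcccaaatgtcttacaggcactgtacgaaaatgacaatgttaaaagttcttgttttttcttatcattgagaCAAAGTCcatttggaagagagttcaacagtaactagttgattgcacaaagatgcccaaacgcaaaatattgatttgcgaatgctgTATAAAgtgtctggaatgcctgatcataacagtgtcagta
These windows matched at 93.2% of 249 aligned bases, and those of Cyp2c40 and Cyp2c69 at 98.9% of 270. The windows of Cyp2c37 and Cyp2c50 matched at 92.1% of 278 aligned bases.

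Each of the 9 members had at least 1 FPKM in all 6 libraries, so all 9 passed the filter on low values (1 FPKM in 3 libraries), and no member passed through 1 group alone. Of these, 3 were higher in the libraries labelled knockout (Cyp2c70, Cyp2c29 and Cyp2c54) and 5 were lower (Cyp2c69, Cyp2c40, Cyp2c39, Cyp2c38 and Cyp2c37) at a limma adjusted p under 0.05. Cyp2c50 was not called. Over all 5673 genes tested, 54.1% were called, 33.7% higher (1911 genes) and 20.4% lower (1157 genes). That balance turned with the scaling, to 1443 higher and 1891 lower with median centring, 1427 and 1761 with quantile normalization, and 1437 and 1601 when rescaled to the total outside mitochondrial transcripts. The groups did not overlap for the 8 called members, against 63.9% of all genes tested. The median log2 difference was -0.94 over the members and 0.12 over all genes tested. The median size of the difference, sign left out, was 2.16 over the members and 0.60 over all genes. The difference was above 2 in size for 6 members, against 6.5% of all genes. In bulk liver, fewer cells of a type and less RNA per cell cannot be told apart. The transcripts of the members held 37.4% (Cyp2c50) to 43.0% G and C, and their exon lengths ran from 1708 to 3061 bases. With trends of GC content and length removed, 4 members were called higher and 5 lower. The log2 difference then was 0.95 for Cyp2c50, -1.61 for Cyp2c38 and 2.53 for Cyp2c29.

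**Figure D1:**
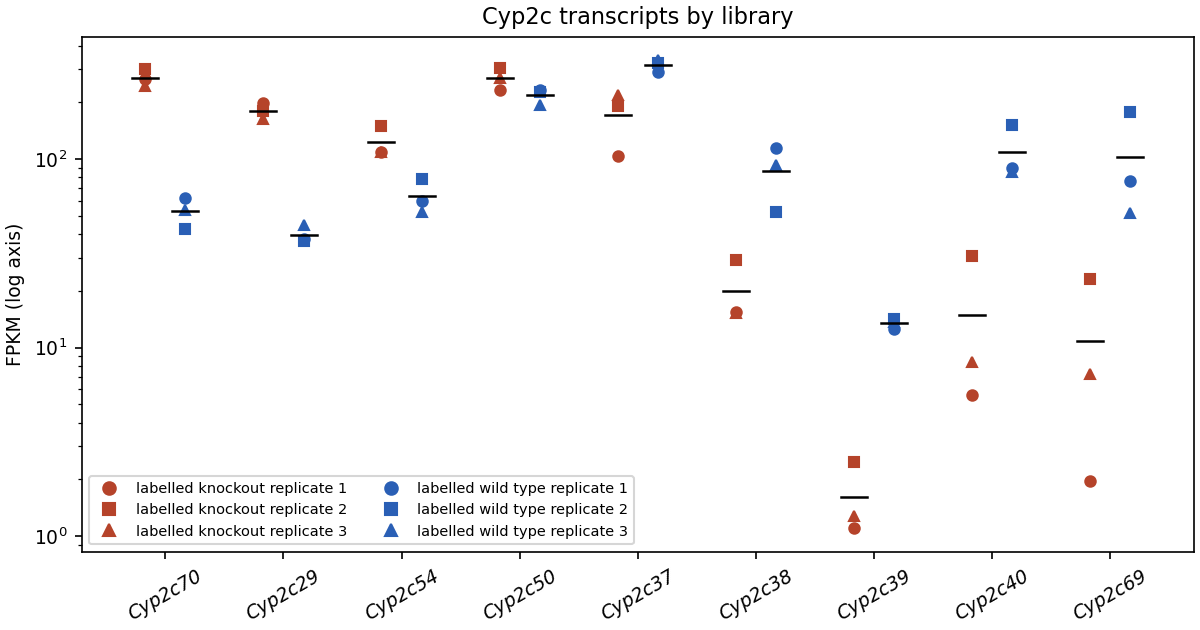
FPKM of the 9 Cyp2c members in each library, on a log axis, with the 3 libraries labelled knockout left of the 3 labelled wild type for every gene. The points of the groups lie apart for 8 genes and overlap for Cyp2c50.

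The epoxygenases of arachidonic acid split by gene. Cyp2c29 had 199, 179 and 164 FPKM in the libraries labelled knockout, against 37.8, 36.6 and 44.6 FPKM in those labelled wild type. Its mean was 4.56 times that of the libraries labelled wild type (log2 difference 2.16 ± 0.17 SE, 95% interval 1.77 to 2.55, limma adjusted p = 0.00011). Every library labelled knockout was above every library labelled wild type, and the gene held places 106 to 123 among the 23021 rows ranked by FPKM in the libraries labelled knockout, against places 447 to 497 in those labelled wild type. Cyp2c38, which makes epoxides of arachidonic acid too, went the other way. It had 15.5, 29.2 and 15.2 FPKM in the libraries labelled knockout, against 114, 52.4 and 93.6 FPKM in those labelled wild type (log2 difference -2.06 ± 0.34 SE, limma adjusted p = 0.0018). Knockout replicate 2 was the highest of its group and wild type replicate 2 the lowest of its own, and the groups stayed apart.

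Cyp2c50 and Cyp2c54, also epoxygenases, and Cyp2c37, known for making hydroxyeicosatetraenoic acids, lie side by side. Cyp2c54 had 109, 150 and 109 FPKM in the libraries labelled knockout, against 59.8, 78.9 and 52.7 FPKM in those labelled wild type. Its mean was 1.92 times that of the libraries labelled wild type (log2 difference 0.93 ± 0.22 SE, 95% interval 0.43 to 1.44, limma adjusted p = 0.0080), and the groups did not overlap. The call was lost when values were rescaled to the total outside mitochondrial transcripts (log2 difference 0.67, limma adjusted p = 0.065). Cyp2c50 had 232, 305 and 270 FPKM in the libraries labelled knockout, against 234, 226 and 194 FPKM in those labelled wild type. These ranges overlapped, and the 95% interval of the log2 difference of 0.30 ran from -0.13 to 0.73 (limma adjusted p = 0.20). With trends of GC content and length taken out of the differences, Cyp2c50 was called higher (log2 difference 0.95, limma adjusted p = 0.0057), while quantile normalization gave -0.01.

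Cyp2c37 was lower in the libraries labelled knockout. It had 104, 191 and 220 FPKM there, against 289, 325 and 335 FPKM in those labelled wild type (log2 difference -0.94 ± 0.28 SE, 95% interval -1.60 to -0.29, limma adjusted p = 0.023). The groups lay apart, with knockout replicate 1 the lowest of all. The difference was -0.62 without knockout replicate 1 and remained called, and the call was lost without wild type replicate 2 (limma adjusted p = 0.069) or 3 (0.070).

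Cyp2c39, a hydroxylase of retinoic acid, was the least abundant member in both groups. It had 1.10, 2.48 and 1.28 FPKM in the libraries labelled knockout (49, 178 and 62 reads), against 12.6, 14.2 and 13.7 FPKM in those labelled wild type (824, 1257 and 508 reads). The log2 difference on the scale of FPKM plus 1 was -2.50 ± 0.22 SE (limma adjusted p = 0.00014). The mean FPKM was 0.12 times that of the libraries labelled wild type. That scale understates the change of a gene this low.

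Cyp2c40, known in mouse for hydroxylating arachidonic acid, and Cyp2c69, whose substrates are not described here, had the largest standard errors. Cyp2c40 had 5.60, 30.7 and 8.41 FPKM in the libraries labelled knockout, against 89.5, 152 and 85.3 FPKM in those labelled wild type (log2 difference -3.08 ± 0.58 SE, 95% interval -4.46 to -1.70, limma adjusted p = 0.0044). Cyp2c69 had 1.96, 23.2 and 7.27 FPKM in the libraries labelled knockout, against 76.9, 178 and 51.7 FPKM in those labelled wild type (log2 difference -3.43 ± 0.86 SE, 95% interval -5.55 to -1.30, limma adjusted p = 0.019). Replicate 2 was the highest library of its group for both genes and in both groups, and the groups did not overlap. Without knockout replicate 3, Cyp2c69 kept its difference (-3.42) and missed the threshold (limma adjusted p = 0.054). Knockout replicate 2 was also the highest library labelled knockout for Cyp2c38 and Cyp2c39.

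Cyp2c70, the enzyme that makes muricholic acids from chenodeoxycholic acid in mice, is the member with a role in bile acid synthesis. It had 267, 302 and 243 FPKM in the libraries labelled knockout, against 62.5, 42.7 and 53.7 FPKM in those labelled wild type. Its mean was 5.10 times that of the libraries labelled wild type (log2 difference 2.34 ± 0.20 SE, 95% interval 1.89 to 2.80, limma adjusted p = 0.00013). All 3 libraries labelled knockout lay above all 3 labelled wild type.

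**Figure D2:**
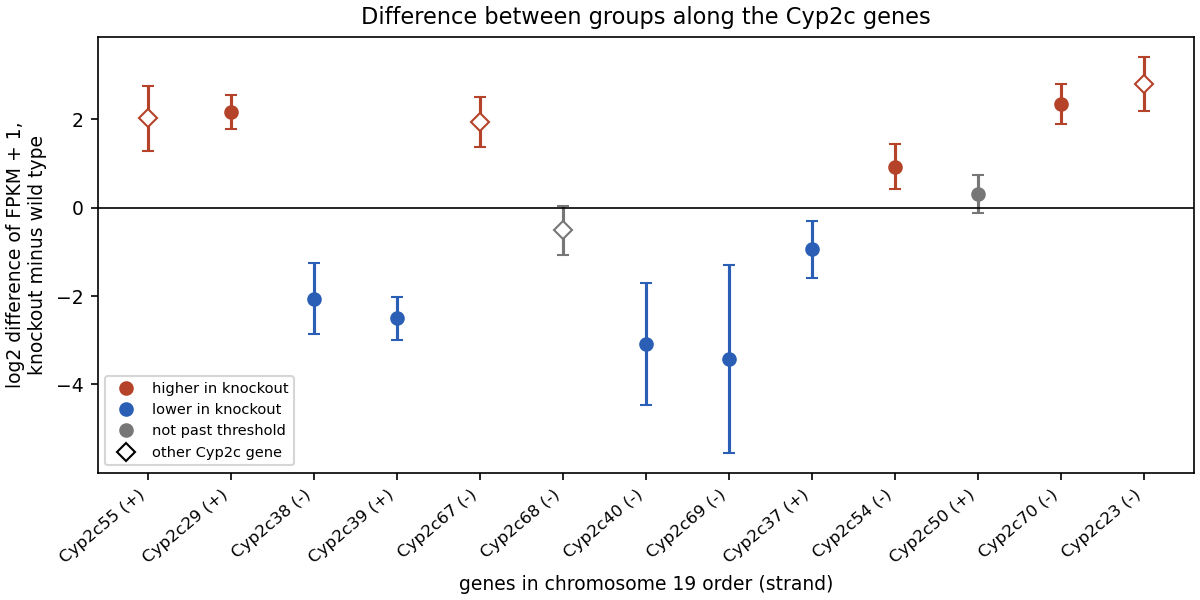
Log2 difference, libraries labelled knockout minus libraries labelled wild type, with 95% intervals, for the Cyp2c genes in their order along chromosome 19. The genes from Cyp2c38 (-2.06) to Cyp2c37 (-0.94) lie below 0 except Cyp2c67 (1.94), and the tested genes on both sides of that stretch lie above 0. Cyp2c68 (-0.51) and Cyp2c50 (0.30) were not called.

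The order of the members by level differed between the groups. In the libraries labelled knockout the means ran from Cyp2c70 (270.4 FPKM) over Cyp2c50, Cyp2c29, Cyp2c37, Cyp2c54, Cyp2c38, Cyp2c40 and Cyp2c69 to Cyp2c39 (1.62 FPKM). In the libraries labelled wild type they ran from Cyp2c37 (316 FPKM) over Cyp2c50, Cyp2c40, Cyp2c69, Cyp2c38, Cyp2c54, Cyp2c70 and Cyp2c29 to Cyp2c39 (13.5 FPKM). Neighbours in the first order lay apart only between Cyp2c50 and Cyp2c29 and between Cyp2c54 and Cyp2c38. In the second order they lay apart between Cyp2c37 and Cyp2c50, between Cyp2c50 and Cyp2c40 and between Cyp2c29 and Cyp2c39. All other neighbours overlapped in their ranges.

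The summed level of the 9 members overlapped between the groups. The 9 members together had 934, 1212 and 1039 FPKM in the libraries labelled knockout, against 976, 1106 and 924 FPKM in those labelled wild type. The means were 1062 ± 140.4 FPKM under the knockout label and 1002 ± 93.8 FPKM under the wild type label (SD, n = 3 each), a ratio of 1.06, with a two-sided exact permutation p of 0.6 (adjusted 0.6 over a family of 10 quantities, the sum and the 9 shares). With 3 libraries against 3 this test cannot go below 0.1. As a share of FPKM outside mitochondrial transcripts the sum was 0.606% ± 0.131 under the knockout label and 0.684% ± 0.0728 under the wild type label (SD, n = 3 each, exact permutation p = 0.4), a ratio of 0.885. With the other Cyp2c genes added, the summed FPKM was 1645 ± 301 under the knockout label and 1397 ± 88.0 under the wild type label (SD, n = 3 each). That ratio was 1.18 (exact permutation p = 0.3), and the groups overlapped.

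The make-up of the sum differed. The members called higher held 61.4%, 52.0% and 49.7% of it in the libraries labelled knockout, against 16.4%, 14.3% and 16.3% in those labelled wild type. The members called lower held 13.7%, 22.8% and 24.3% under the knockout label, against 59.6%, 65.3% and 62.7% under the wild type label. These sums follow from the calls and are given as a description. Cyp2c50 held 25.3% ± 0.602 of the sum in the libraries labelled knockout and 21.8% ± 1.94 in those labelled wild type (SD, n = 3 each). The share of each of the 9 members lay apart between the groups, with an exact permutation p of 0.1 each, the smallest the design allows (adjusted 0.111).

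**Figure D3:**
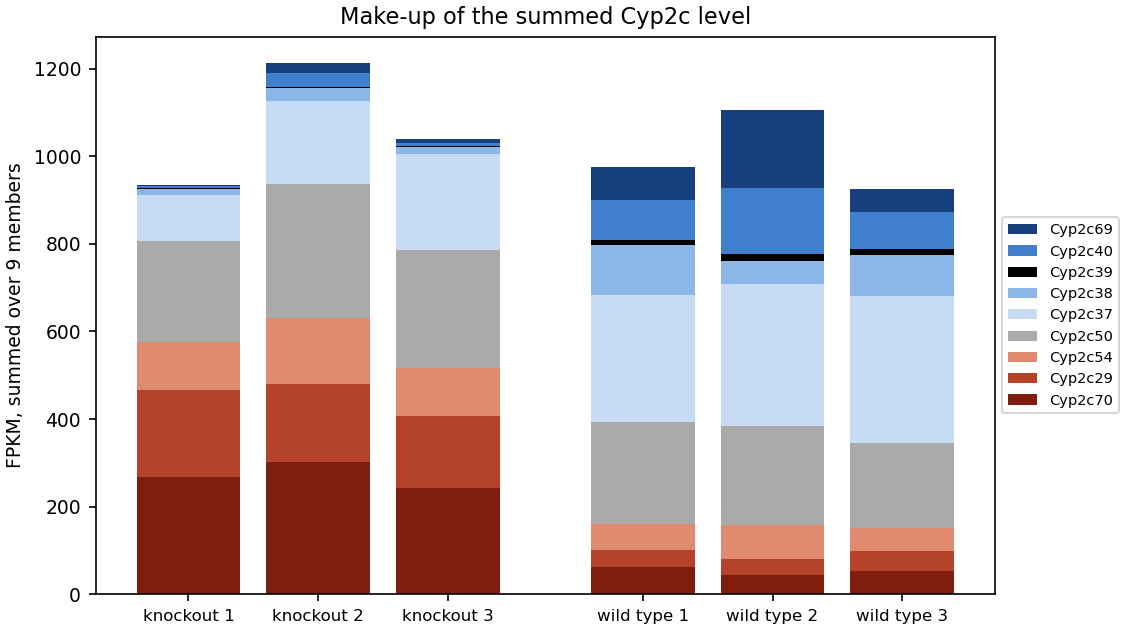
FPKM of the 9 Cyp2c members stacked by library, from 0, with the 3 libraries labelled knockout on the left. The totals lie between 924 and 1212 FPKM in all 6 libraries, while the members called higher take 49.7% to 61.4% of the columns on the left and 14.3% to 16.4% of those on the right.

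Coding sequences sorted the family into subgroups of near copies. Among 13 Cyp2c genes, Cyp2c40, Cyp2c67, Cyp2c68 and Cyp2c69 were 96.5% to 98.1% identical over aligned bases. Cyp2c37, Cyp2c50 and Cyp2c54 were 95.1% to 96.1% identical. Cyp2c38 and Cyp2c39 were 94.2% identical, and Cyp2c29 matched them at 89.1% and 89.5%. Cyp2c70 matched the rest of the cluster at 72.3% to 74.5%. Each of the 3 subgroups held a gene called higher and a gene called lower in the libraries labelled knockout. These were Cyp2c67 against Cyp2c40 and Cyp2c69, Cyp2c54 against Cyp2c37, and Cyp2c29 against Cyp2c38 and Cyp2c39.

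**Figure D4:**
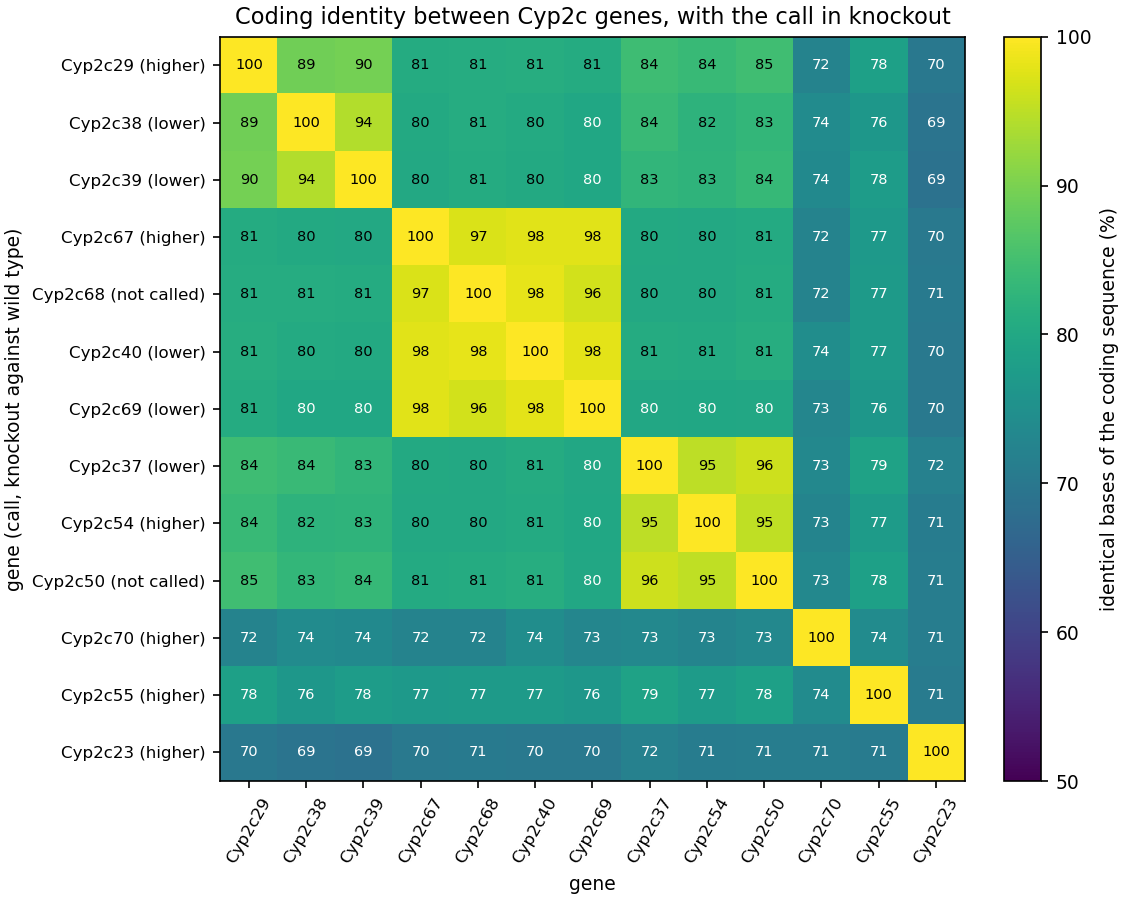
Percent identity of coding sequences over aligned bases for each pair of 13 Cyp2c genes, in the order of the subgroups. The subgroup of Cyp2c40, Cyp2c67, Cyp2c68 and Cyp2c69 reaches 96.5% to 98.1%, and Cyp2c70 and Cyp2c23 stand apart from all others.

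Ratios within a library put these opposite differences side by side, for pairs chosen after their values were seen and therefore without a test. Cyp2c29 to Cyp2c38 was 12.8, 6.14 and 10.8 in the libraries labelled knockout, against 0.332, 0.698 and 0.477 in those labelled wild type. Cyp2c54 to Cyp2c37 was 1.05, 0.786 and 0.495 under the knockout label, against 0.207, 0.243 and 0.157 under the wild type label. Cyp2c67 to Cyp2c40 was 59.0, 14.8 and 29.5 under the knockout label, against 0.859, 0.549 and 1.17 under the wild type label. The ratio of Cyp2c69 to Cyp2c40 overlapped between the groups, at 0.349, 0.755 and 0.865 in the libraries labelled knockout and 0.859, 1.17 and 0.606 in those labelled wild type.

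The sources used here do not say how reads that fit several of these near copies were counted. Of the 50-base stretches of its transcript, Cyp2c40 shared 72.1% with another Cyp2c gene, Cyp2c69 54.8%, Cyp2c67 52.8% and Cyp2c68 43.3%. For 100-base stretches the shares were 44.1%, 36.3%, 23.7% and 19.8%. The levels of these 4 genes are therefore uncertain against each other. Cyp2c37, Cyp2c50 and Cyp2c54 shared 25.7% to 30.7% of 50-base stretches and 4.70% to 9.40% of 100-base stretches. Cyp2c39 shared 11.4%, Cyp2c38 7.45%, Cyp2c29 2.08% and Cyp2c70 0% of 50-base stretches, and none of these shared a stretch of 100 bases. Cyp2c29, Cyp2c38, Cyp2c39 and Cyp2c70 were called in the same direction under each of 17 other settings, and so were Cyp2c40 and Cyp2c67. All settings start from the same FPKM values, so they cannot show how shared reads were counted.

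Of the other Cyp2c genes, 4 were tested and 75.0% of them called, against 54.1% of all genes tested. There were 3 called higher and 0 lower under the knockout label. Cyp2c67 had 330.4, 453 and 249 FPKM there, against 76.9, 83.8 and 99.7 FPKM in those labelled wild type (log2 difference 1.94, limma adjusted p = 0.00056). Cyp2c68 had 179, 306 and 181 FPKM in the libraries labelled knockout, against 316, 304 and 300 FPKM under the wild type label (log2 difference -0.51, limma adjusted p = 0.10), and the groups overlapped through knockout replicate 2. Without that library Cyp2c68 was called lower (log2 difference -0.77, limma adjusted p = 0.018). Cyp2c65, Cyp2c66, Cyp2c52-ps and Cyp2c53-ps were under the filter.

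Cyp2c23, the gene that RefSeq also lists as Cyp2c44, codes for an epoxygenase described in mouse kidney. It had 12.5, 17.6 and 9.78 FPKM in the libraries labelled knockout, against 1.75, 0.62 and 0.815 FPKM in those labelled wild type (log2 difference 2.80, limma adjusted p = 0.00020). With only replicate 1 of the wild type label at 1 FPKM or more, Cyp2c23 passed the filter through the libraries labelled knockout. Cyp2c55, described in mouse colon and kidney, had 6.21, 3.07 and 1.71 FPKM under the knockout label, against 0.0696, 0.113 and 0 FPKM under the wild type label (log2 difference 2.02, limma adjusted p = 0.0014), and reached the filter in the libraries labelled knockout alone. Kap, a marker of kidney proximal tubule, was at 5264 FPKM in knockout replicate 1, at 4.18 and 5.72 FPKM in knockout replicates 2 and 3, and at 0 to 0.0785 FPKM in the libraries labelled wild type. Summed over the 13 kidney markers with a row, the level was 11.6 to 5309.7 FPKM under the knockout label, against 4.07 to 7.33 FPKM under the wild type label. Kap made up most of the sum in knockout replicate 1. In knockout replicates 2 and 3 Kap held 4.18 of 12.6 FPKM and 5.72 of 11.6 FPKM, and Acsm3 held 8.03 and 5.44 FPKM. Acsm3 had 3.15 to 5.75 FPKM under the wild type label. Without knockout replicate 1 the difference was 2.82 for Cyp2c23 (limma adjusted p = 0.00047) and 1.65 for Cyp2c55 (0.00055), and both were still called. Knockout replicates 2 and 3 were also above the wild type label in Kap, so this fit does not remove the Kap difference. Other kidney markers differed from Kap. In those replicates Slc12a1 (0.118 and 0.0909 FPKM) and Calb1 (0.224 and 0.201 FPKM) lay below every library labelled wild type. The lowest wild type values were 0.328 FPKM for Slc12a1 and 0.437 FPKM for Calb1. The part of kidney tissue in the differences of Cyp2c23 and Cyp2c55 was not tested.

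Genes that work with Cyp2c enzymes were read from lists of pathway members. Of 18 redox partners of P450 enzymes and heme enzymes, 7 were tested, and 2 of them were called higher and 2 lower under the knockout label. The share called, 57.1%, was near the 54.1% of all genes. Pgrmc2, a heme-binding membrane protein, had 19.4, 24.2 and 21.2 FPKM under the knockout label, against 8.49, 2.96 and 3.51 FPKM under the wild type label. Cpox, an enzyme late in heme synthesis, had 29.1, 29.7 and 28.8 FPKM under the knockout label, against 46.8, 58.9 and 63.6 FPKM under the wild type label. Cyb5b, a cytochrome b5 of the outer mitochondrial membrane, was higher at 65.3, 50.3 and 62.2 FPKM under the knockout label against 30.5, 16.7 and 27.0 FPKM under the wild type label. Fech, which puts iron into heme, was lower at 5.67, 5.34 and 5.55 FPKM under the knockout label against 7.20, 7.47 and 8.33 FPKM under the wild type label. The microsomal cytochrome b5, Cyb5a, was not called, at 65.9, 78.6 and 84.5 FPKM under the knockout label against 97.4, 135 and 92.5 FPKM under the wild type label (limma adjusted p = 0.076). Por, the P450 reductase, was listed at 0.0186 to 0.162 FPKM in the libraries labelled knockout and at 0 to 0.0138 FPKM in those labelled wild type, under the filter. Of 12 hepatocyte markers with a row, 10 passed the filter and Apoa1 and Apoc3 did not. Apoa1 was at 0.396, 1.94 and 0.454 FPKM under the knockout label and at most 0.0791 FPKM under the wild type label. Whether such low listed values reflect low transcript levels in these livers was not tested.

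Among 15 enzymes of epoxyeicosanoids and their handling, 5 were tested and 4 were higher in the libraries labelled knockout, with 0 lower. Among all genes tested, 54.1% were called, 33.7% higher and 20.4% lower, and 5 genes are too few to compare with these shares. Ephx2, the soluble epoxide hydrolase that breaks down the products of the Cyp2c epoxygenases, had 26.2, 53.8 and 26.3 FPKM under the knockout label, against 2.17, 0.87 and 0.846 FPKM under the wild type label (log2 difference 3.95 ± 0.33 SE, limma adjusted p = 0.00013). Its groups lay far apart, but only replicate 1 of the wild type label reached 1 FPKM. Ephx2 therefore passed the filter through the libraries labelled knockout. Fabp1, which carries fatty acids in hepatocytes, had 302, 355 and 283 FPKM under the knockout label, against 50.1, 36.0 and 22.5 FPKM under the wild type label. Cyp2j9 was higher at 8.71, 11.6 and 9.73 FPKM under the knockout label against 3.18, 1.82 and 2.48 FPKM under the wild type label, and Cyp2j6 at 34.3, 31.0 and 21.4 FPKM under the knockout label against 21.6, 15.1 and 16.9 FPKM under the wild type label. Cyp2j5, an epoxygenase of another family, was not called, at 337, 304 and 223 FPKM under the knockout label against 266, 326 and 338 FPKM under the wild type label (limma adjusted p = 0.67).

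Of 28 listed regulators of Cyp2c genes, 16 were tested, and 7 of them were called higher and 1 lower under the knockout label. Called genes were 8 of 16, a share near that of all genes. Bcl6, a repressor that growth hormone controls in liver, had 7.55, 12.6 and 8.19 FPKM under the knockout label, against 2.46, 1.60 and 3.55 FPKM under the wild type label (log2 difference 1.57 ± 0.26 SE, limma adjusted p = 0.0018). Nr1h4, the bile acid receptor FXR, had 16.3, 19.2 and 14.6 FPKM under the knockout label, against 7.62, 4.64 and 5.22 FPKM under the wild type label. Ppargc1a, a coactivator of nuclear receptors, was the gene called lower, at 4.16, 2.92 and 4.64 FPKM under the knockout label against 8.18, 9.67 and 6.89 FPKM under the wild type label. Hnf4a had 5.14, 9.11 and 11.4 FPKM under the knockout label against 6.09, 5.94 and 4.80 FPKM under the wild type label, with overlap and no call (limma adjusted p = 0.16). Ghr, the growth hormone receptor, had 138, 89.9 and 90.2 FPKM under the knockout label against 123, 186 and 190.3 FPKM under the wild type label, and it too was not called (limma adjusted p = 0.061).

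Of 21 listed targets of CAR and PXR, 12 were tested, and 6 of them were called higher and 3 lower under the knockout label. The share called was 75.0%, against 54.1% of all genes tested. The 3 lower genes, Cyp2b9, Cyp2b13 and Cyp3a44, reached the filter in the libraries labelled wild type alone, and 2 of the 6 higher genes in those labelled knockout alone. Cyp2b9 had 0.217, 0.0404 and 0 FPKM in the libraries labelled knockout, against 34.2, 10.1 and 23.4 FPKM in those labelled wild type. Ces2a, a carboxylesterase, was higher at 3.37, 3.79 and 3.17 FPKM under the knockout label against 0.871, 0.750 and 0.497 FPKM under the wild type label. Ces2a is 1 of the 2 higher genes that reached the filter under the knockout label alone. Cyp3a11, the main Cyp3a enzyme of mouse liver, had 1889, 1923 and 1444 FPKM under the knockout label, against 677, 768 and 446 FPKM under the wild type label (2.78 times, limma adjusted p = 0.0020).

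Beside Cyp2c70, 16 of 22 listed genes of bile acid synthesis and transport were tested. Under the knockout label 9 were called higher and 2 lower, a share of 68.8% called against 54.1% of all genes tested. For 1 of the 9, no library labelled wild type reached 1 FPKM. Cyp7b1, which hydroxylates oxysterols in the alternative pathway, had 267, 219 and 259 FPKM under the knockout label, against 15.0, 16.2 and 24.8 FPKM under the wild type label (log2 difference 3.69 ± 0.22 SE, limma adjusted p = 3.5e-05). Slco1a1, an uptake transporter of organic anions and bile acids, had 289, 155 and 151 FPKM under the knockout label, against 4.34, 2.16 and 2.59 FPKM under the wild type label. Abcb11, the bile salt export pump, averaged 26.2 ± 5.37 FPKM under the knockout label and 0.878 ± 0.702 FPKM under the wild type label (SD, n = 3 each). In the latter group only replicate 1 reached 1 FPKM (1.68 FPKM), so Abcb11 passed the filter through the libraries labelled knockout. Cyp7a1, the rate-limiting enzyme of the classic pathway, was not called, at 83.0, 219 and 179.6 FPKM under the knockout label against 182, 207 and 260.1 FPKM under the wild type label (limma adjusted p = 0.24). Akr1d1, a reductase of bile acid synthesis, was lower at 42.3, 55.2 and 41.7 FPKM under the knockout label against 187, 185 and 185 FPKM under the wild type label.

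Summed markers of cell types differed between the groups. Of 10 hepatocyte markers tested (15 listed), 8 were called higher and 0 lower under the knockout label (2 of the 8 at the filter there alone). Among all genes tested, 33.7% were called higher and 20.4% lower. The hepatocyte markers summed to 5676 to 7349 FPKM under the knockout label against 2496 to 3209 FPKM under the wild type label. In that sum, Cyp3a11 and Cyp2e1 averaged 1752 and 1177 FPKM under the knockout label. Under the wild type label they averaged 630.4 and 143 FPKM. Apob, also in that sum, was not called (means of 1057 FPKM under the knockout label and 1168 FPKM under the wild type label). Of 22 listed markers of biliary, immune and vascular cells, 5 were tested, with 1 higher and 4 lower. Their summed level was 30.9 to 40.8 FPKM in the libraries labelled knockout and 80.9 to 134 FPKM in those labelled wild type. Dcn, a proteoglycan of connective tissue cells, made up 15.4 to 28.2 FPKM of it under the knockout label and 61.5 to 116 FPKM under the wild type label. Without Dcn the sums were 12.6 to 15.5 FPKM under the knockout label and 18.5 to 19.4 FPKM under the wild type label, and Sox9, a marker of bile duct cells, was the gene called higher. The part of these markers in the differences of the Cyp2c members was not tested.

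The genes most like a member were taken for the member furthest up and the member furthest down, by the root mean square distance of their centred log2 values over the 6 libraries. Closest to Cyp2c70 were Glyat (0.09), Hnrnpab (0.10) and Skp1 (0.10). Skp1, a subunit of SCF ubiquitin ligases, had 113, 139 and 98.8 FPKM in the libraries labelled knockout, against 26.7, 15.7 and 24.6 FPKM under the wild type label. Closest to Cyp2c69 were its near copy Cyp2c40 (0.44) and the fatty acid hydroxylases Cyp4a14 (0.58) and Cyp4a10 (0.76). Cyp4a14 had 191, 832 and 385 FPKM in the libraries labelled knockout, against 4511, 6098 and 5723 FPKM under the wild type label, and as with Cyp2c69 its highest library in each group was replicate 2. The distances to Cyp2c69 were larger than those to Cyp2c70.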

How the data were processed

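Liver RNA sequencing of 6 mouse libraries was used, 3 labelled Cdkl3-/- and 3 labelled wild type. The authors deposited 1 table of FPKM values per library, per the file headers. HISAT2 and the GRCm39 genome are named in the submitters' processing notes. The sources used here give neither the counter nor the annotation. Identifier and symbol disagreed throughout: in 0 of 24927 rows did both point to one gene. Symbols were used because with the lengths of the genes they name, 98.95% of 43310 low values were whole reads within 0.15 read, against 30.58% with the identifiers. A block of 1787 rows on chromosome 1 (35.99% whole) and 127 rows without a symbol were left out. The whole-read steps also gave the depths. In the header of knockout replicate 3 the sample code differs from the title, and the label was used. Depth sets the precision of low values, which rest on few reads.

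Values were fitted as log2(FPKM + 1) with limma 3.58.1 (R 4.3.3, trend and robust) for 5673 genes at 1 FPKM or more in 3 of 6 libraries, with Benjamini-Hochberg adjustment over all of them and a threshold of 0.05. Fold changes are on that scale unless given as ratios of mean FPKM. A gene is said to reach the filter under 1 label alone where no library of the other label had 1 FPKM. Genes that reached 1 FPKM in only some libraries of the other label can also have passed through 1 label, and are not in those counts. Sums and shares were compared by exact permutation tests. Named genes were the members, up to 4 genes of each list with the smallest adjusted p, and the 3 genes nearest in profile to the member furthest up and the member furthest down. Not every such gene is printed. Others (Cyb5a, Por, Apoa1, Apob, Cyp2j5, Hnf4a, Ghr, Cyp3a11, Cyp7a1, Kap, Slc12a1, Calb1 and Cyp2c68) were picked after their values were seen. Members and lists were chosen with earlier results of these data known. Coding sequences came from GENCODE M21 (GRCm38) and promoters from RefSeq. Alternatives covered the filter, pseudocount, scaling, GC and length trends, the replicate block and leaving out each library.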

Additional observations from a re-analysis of the deposited data

How the results depend on the processing

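The 17 other settings left 5 members (Cyp2c29, Cyp2c38, Cyp2c39, Cyp2c40 and Cyp2c70) and Cyp2c67 with their direction and call in all. Over all genes, 3171 were higher with no filter, and 468 were higher and 559 lower with a filter of 10 FPKM. Median centring, which shifted all log2 differences by 0.28, gave 1443 higher and 1891 lower, quantile normalization 1427 and 1761, and rescaling to the total outside mitochondrial transcripts 1437 and 1601, against 1911 and 1157. Leaving out 1 library in turn gave 1575 to 1959 genes higher and 819 to 1123 lower, 3 members higher in each and 4 to 5 lower, and a ratio of summed FPKM of 0.984 to 1.12, against 0.885 when rescaled to the total outside mitochondrial transcripts. Cyp2c37 lost its call with no filter (limma adjusted p = 0.068, range 0.0037 to 0.070), and Cyp2c50 reversed with quantile normalization (-0.01, limma adjusted p = 0.97). Cyp2c68 was called lower with median centring (-0.80, limma adjusted p = 0.020) and quantile normalization (-0.99, 0.0057). The cause was not tested. Deviations from the group means correlated at -0.049, -0.096 and 0.181 between same-numbered libraries. Between differently numbered libraries they correlated at -0.347 to 0.345. With 3 libraries per group these values cannot show whether libraries were paired, and the labels give no pairing. With the replicate block, 1740 genes were higher and 1031 lower, with 3 members higher and 5 lower. With the block and the GC and length trends removed, 1686 and 839 genes and 4 and 5 members were. Depth limits Cdkl3, at 10 to 32 reads.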

Other observations

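Of 12 pericentral hepatocyte genes tested (19 listed), 6 were higher and 1 lower. Cyp2e1, a pericentral P450 enzyme, had 1026, 1372 and 1132 FPKM in the libraries labelled knockout, against 231, 90.6 and 106 FPKM in those labelled wild type. Of 10 periportal genes tested (18 listed), 7 were higher and 1 lower. Hsd17b13, a lipid droplet enzyme, had 120.4, 184 and 110.1 FPKM under the knockout label, against 21.2, 9.29 and 7.02 FPKM under the wild type label. Cyp2f2, a periportal P450 enzyme that reached the filter under the knockout label alone, had 5.03, 9.35 and 4.51 FPKM under the knockout label, against 0.658, 0.305 and 0.121 FPKM under the wild type label. The 1 periportal gene called lower was Ctsc, a lysosomal protease, at 20.7, 39.2 and 29.4 FPKM under the knockout label against 60.0, 65.1 and 76.2 FPKM under the wild type label. Over all genes tested, 33.7% were called higher and 20.4% lower.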
